A study of Homo sapiens with 41 samples.

Results

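UACC62 is a human melanoma cell line that carries the activating BRAF mutation which vemurafenib targets. The results below compare UACC62 cultures kept for 48 h in 1 µM vemurafenib (2 samples) with UACC62 cultures given vehicle (2 samples), 4 of the 41 samples of the series, over all genes. The rule that chose the 4 samples used their labels and no measured value. Earlier results of these data were known when they were chosen. Cells were plated in medium with 10% fetal bovine serum, and both groups were then moved to medium with 2% serum that held the drug or the vehicle. The labels give no time point for the vehicle cultures. RNA was extracted from whole cells and sequenced. The comparison addresses how melanoma cells respond to a block of the kinase that drives them. A second melanoma line, Colo800, was treated at the same dose and time (2 samples with vemurafenib, 2 with vehicle) and is used here for comparison. All cells of a group were 1 cell line in culture, with no host tissue. The labels do not say whether replicates came from separate cultures, so the spread behind the p-values is that of 2 samples a group and may be technical.

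BRAF is a kinase that passes growth signals from RAS to MEK and from MEK to ERK, and ERK then switches on transcription factors of the ETS and AP-1 families, MYC and the cyclins that start the cell cycle. The same pathway induces its own inhibitors, the Sprouty proteins and the dual-specificity phosphatases, so the RNA of these inhibitors is widely used as a readout of ERK signalling. In pigment cells, the transcription factor MITF drives melanin synthesis and also lysosome genes, and ERK signalling restrains part of that programme.

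Values are normalised read counts, that is, the reads of a gene divided by a size factor for its library, and they are listed as replicate 1 and then replicate 2 of each group. The vemurafenib libraries held 11441346 and 11868309 reads, and the vehicle libraries held 13996702 and 12457092. The vemurafenib replicates differed from each other more than the vehicle replicates did. The median absolute log2 difference between replicates was 0.201 with vemurafenib and 0.0767 with vehicle, and 1.49% of genes differed by more than 2-fold between the vemurafenib replicates, against 0.689% between the vehicle replicates. The difference between the vemurafenib replicates moved with gene length. Over 11814 genes, Spearman's rho between locus length and the log2 difference of replicate 1 minus replicate 2 was -0.462 with vemurafenib and -0.0479 with vehicle, a description across genes, which are not independent replicates. Long genes therefore read lower, and short genes higher, in vemurafenib replicate 1 than in vemurafenib replicate 2. Its part in any single result was not tested, and the values of both replicates are given so that it can be seen. The 10 tested melanocyte lineage markers summed to 56989 and 62737 with vemurafenib, against 28848 and 28412 with vehicle, and all 10 were read in every library, as a melanoma line would have them. Of 8 leukocyte markers 1 passed the filter on low values, CD68, a protein of lysosomes in macrophages and other cells, which set the sum of 1725 and 1538 with vemurafenib, against 599 and 599 with vehicle. The leukocyte marker CD14 was listed at 0, and the defining endothelial markers PECAM1 and CDH5 were at or near 0. Of 7 endothelial markers 3 passed the filter, and the list summed to 967 and 742 with vemurafenib, against 882 and 849 with vehicle. EGFL7, which gave most of that sum, had 929 and 690.4 with vemurafenib, against 762 and 749.6 with vehicle. Of 8 fibroblast markers 6 passed that filter, and the list summed to 2693 and 2382 with vemurafenib, against 1718 and 1847 with vehicle. Most of it was LUM, lumican, with 2229 and 1895 with vemurafenib, against 1231 and 1355 with vehicle. PDGFRA had 202 and 255 with vemurafenib, against 317 and 313 with vehicle, and FAP had overlapping groups at 137 and 125 with vemurafenib, against 128 and 136 with vehicle.

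Promoter sequences of 4 gene groups are shown first, because these groups moved as blocks in the results that follow. They were taken from RefSeq (GRCh38.p14), which listed a promoter of 300 bases, 250 before and 50 after the start site, for 10683 of the 13649 tested genes. The pigment genes are known targets of MITF, which binds the M-box, here searched as CATGTG on both strands. M-box letters were found in 5 of 14 promoters of the melanin and melanosome list, which is 35.71%, against 6.75% of all 10683 promoters. The extended form TCATGTG, which contains the first motif, was found in 4 of 14, or 28.57%, against 1.72% of all promoters. Both forms were also found in the promoter of SLC24A5, a gene of the list that did not pass the threshold. The E-box CACGTG was searched as well and was found in 2 of 14, or 14.29%, against 10.14% of all promoters. The 3 promoters below each held 2 matches in the 160 bases before the start site, shown 5′ to 3′ on the coding strand with the M-box letters in capitals. TYRP1 is at chr9:12693225-12693384 (plus strand), GPNMB at chr7:23246615-23246774 (plus strand) and TYR at chr11:89177715-89177874 (plus strand). They encode 2 melanin-forming enzymes, TYRP1 and tyrosinase, and GPNMB, a glycoprotein of melanosomes and lysosomes. The promoters listed first for DCT, PMEL and MLANA held no such letters in this window.
TYRP1: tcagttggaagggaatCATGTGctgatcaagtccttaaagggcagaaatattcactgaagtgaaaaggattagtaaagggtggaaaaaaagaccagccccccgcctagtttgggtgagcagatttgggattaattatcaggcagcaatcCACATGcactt
GPNMB: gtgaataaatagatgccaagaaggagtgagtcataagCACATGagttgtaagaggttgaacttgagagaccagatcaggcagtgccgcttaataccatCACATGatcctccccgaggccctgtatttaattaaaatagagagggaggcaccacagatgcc
TYR: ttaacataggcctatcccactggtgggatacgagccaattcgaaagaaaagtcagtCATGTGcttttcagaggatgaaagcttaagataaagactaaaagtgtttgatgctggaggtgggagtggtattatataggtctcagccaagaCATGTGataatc

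Mitotic genes are known to be held off outside of late cell cycle through a cell cycle homology region, searched here as TTTGAA on both strands. It was found in 25 of 35 promoters of the mitosis list, or 71.43%, against 9.67% of all promoters, and in 1 of 33 promoters of the DNA replication list. CCAAT boxes, which often lie upstream of it, were found in 27 of 35 mitosis promoters, or 77.14%, against 36.67% of all promoters. The promoters of MKI67 (chr10:128126424-128126583 (minus strand)), HMMR (chr5:163460472-163460631 (plus strand)), CCNB2 (chr15:59104986-59105145 (plus strand)) and PLK1 (chr16:23678729-23678888 (plus strand)) are shown with TTTGAA in capitals. In HMMR the 2 matches stood next to each other, and all 4 promoters held a match within 50 bases of the start site.
MKI67: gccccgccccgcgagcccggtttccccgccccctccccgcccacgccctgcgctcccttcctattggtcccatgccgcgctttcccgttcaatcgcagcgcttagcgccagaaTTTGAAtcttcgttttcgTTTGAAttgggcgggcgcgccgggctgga
HMMR: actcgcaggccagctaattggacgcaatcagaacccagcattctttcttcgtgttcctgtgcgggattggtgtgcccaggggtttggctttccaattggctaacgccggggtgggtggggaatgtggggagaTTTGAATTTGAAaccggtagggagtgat
CCNB2: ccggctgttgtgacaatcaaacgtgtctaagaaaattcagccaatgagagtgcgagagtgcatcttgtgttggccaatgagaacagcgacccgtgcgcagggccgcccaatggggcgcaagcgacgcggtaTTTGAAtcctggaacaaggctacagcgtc
PLK1: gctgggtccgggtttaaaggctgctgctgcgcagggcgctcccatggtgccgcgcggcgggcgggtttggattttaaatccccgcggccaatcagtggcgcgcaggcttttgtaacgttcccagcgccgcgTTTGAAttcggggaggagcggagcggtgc

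Replication genes carry a different motif. The E2F site, searched as TTTGGCGC, TTTCCCGC or TTTCGCGC on both strands, was found in 18 of 33 promoters of the DNA replication and nucleotide synthesis list, or 54.55%, against 3 of 35 of the mitosis list and 4.52% of all promoters. MCM6 (chr2:135876444-135876603 (minus strand)), a subunit of the replicative helicase, held 4 matches in 2 pairs, in which TTTGGCGC overlaps TTTCGCGC read on the other strand. POLE (chr12:132687343-132687502 (minus strand)), the leading-strand polymerase, held 1 match, read on the other strand. For cholesterol genes the sterol regulatory element was searched as TCACNCCAC on both strands, and 1 of 17 promoters (5.88%) held it, that of SREBF2 (chr22:41832945-41833104 (plus strand)), against 1.11% of all promoters. CCAAT was found in 14 of those 17 promoters, or 82.35%. A match is a description of the letters and not evidence of binding. The matched letters are again in capitals.
MCM6: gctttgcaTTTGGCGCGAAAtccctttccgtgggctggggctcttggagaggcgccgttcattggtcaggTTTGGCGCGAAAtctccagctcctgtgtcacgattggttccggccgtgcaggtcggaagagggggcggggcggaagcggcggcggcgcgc
POLE: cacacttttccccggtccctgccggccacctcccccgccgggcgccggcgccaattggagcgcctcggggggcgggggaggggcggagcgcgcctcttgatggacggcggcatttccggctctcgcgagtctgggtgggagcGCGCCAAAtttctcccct
SREBF2: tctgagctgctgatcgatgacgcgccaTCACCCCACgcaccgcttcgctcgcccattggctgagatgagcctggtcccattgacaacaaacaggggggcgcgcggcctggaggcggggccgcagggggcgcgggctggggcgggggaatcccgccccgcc

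The response to vemurafenib reached most of the measured transcriptome. Of 13649 genes tested with limma on log2 values, 3668 (26.9%) were higher and 4039 (29.6%) were lower at a Benjamini-Hochberg adjusted p under 0.05, together 56.5%. A change of at least 2-fold was seen in 20.9% of genes, of which 1238 rose (9.07%) and 1618 fell (11.9%). The larger changes lay on the side of the falls: 272 genes fell by at least 8-fold and 82 rose by as much, and 75 fell by at least 32-fold while 10 rose by as much. The 2 groups did not overlap in any of the 7707 called genes. Over all tested genes, 79.1% had groups that did not overlap. The median log2 change of all tested genes was -0.01, so the changes below are close to changes relative to the typical gene. RNA per cell was not measured. Without vemurafenib replicate 1 there were 9538 calls, and without replicate 2 there were 9872. Of 435 changed genes taken by the rule for named genes, 62 no longer passed without vehicle replicate 1 and 60 without vehicle replicate 2, and of 434 that could be tested, 2 no longer passed without vemurafenib replicate 1 and 2 without replicate 2. The 70 genes that no longer passed without a vehicle replicate had changes with a median size of 0.44 on the log2 scale and a largest size of 1.11, that of F3, tissue factor. Of the genes named below, the calls lost without 1 of the vehicle replicates were those of ANKRD37, ARAF, ATF4, B2M, BCL2L11, BID, BNIP3L, CD44, CDH19, CDK4, DDIT3, DNAJB9, DNMT3A, DUSP1, DUSP7, ENO2, ERBB2, EZH1, HLA-DRB1, HSPB8, IGFBP2, LPCAT3, MAX, MCL1, MDM2, MLX, MYH9, NRAS, OGDH, PCNA, PMVK, TAP1 and XRCC5. In what follows, the numbers in parentheses after a gene are its log2 change, vemurafenib over vehicle, ± SE (n = 2 each) on the log2(value + 1) scale, and a gene is said to have risen or fallen only where it passed the test. The counts of risen and fallen genes in each list stand against 26.9% higher and 29.6% lower among all genes.

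**Figure D1:**
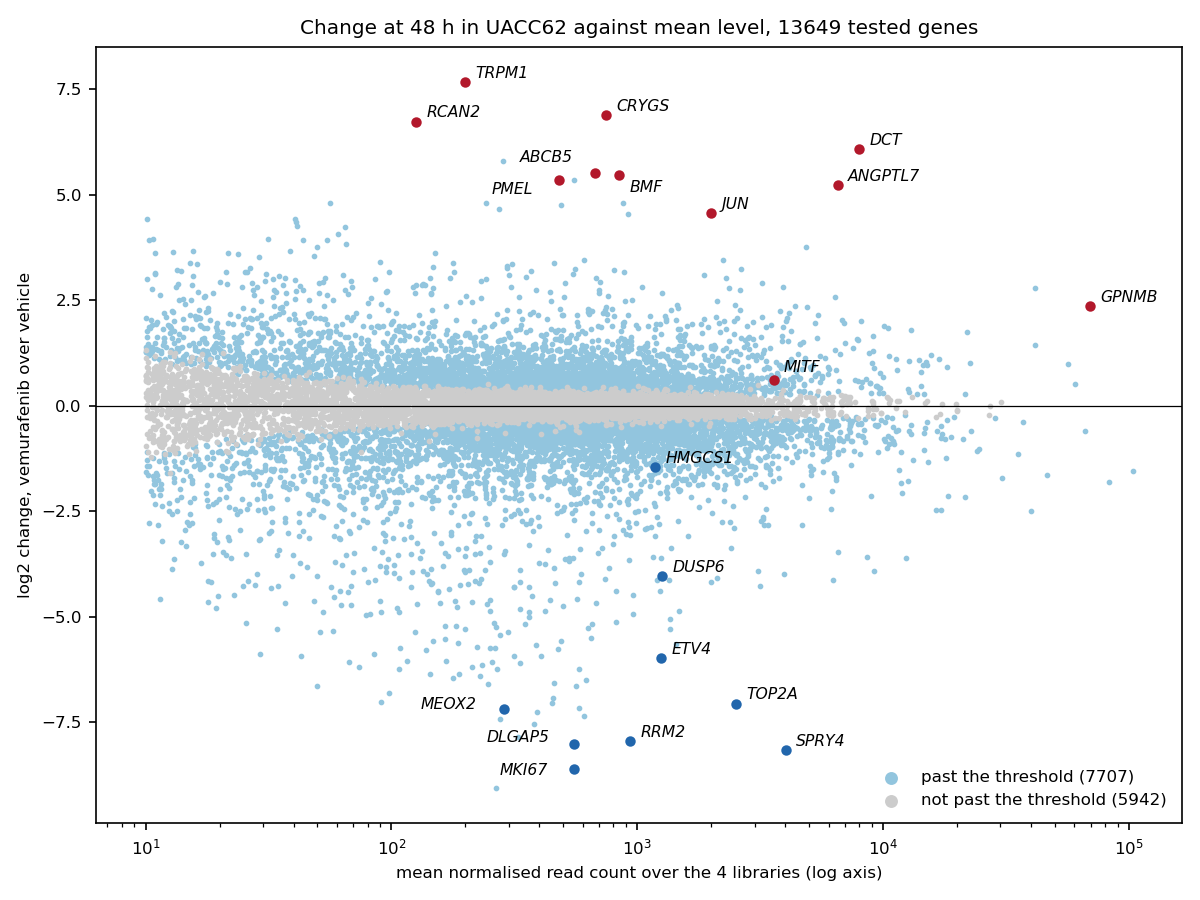
Log2 change of vemurafenib over vehicle (vertical axis) against the mean normalised read count of the 4 UACC62 libraries (horizontal log axis), 1 point per tested gene, blue where the gene passed the threshold and grey where it did not, with 20 genes labelled. Among the labelled genes TRPM1 is the highest with 7.66 and MKI67 the lowest with -8.60, and the points below -5 outnumber those above 5.

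The 12 largest rises included genes of pigment cells. TRPM1, a cation channel of melanocytes, had 406 and 392 with vemurafenib, against 0.924 and 1.03 with vehicle. This was a gene next to silent in vehicle that was read in every vemurafenib library, with 784 reads against 2, a ratio of 409 with a 95% counting interval of 113 to 3383. DCT, the dopachrome tautomerase of melanin synthesis, had 12570.3 and 18898 with vemurafenib, against 214 and 242 with vehicle (6.07 ± 0.17, limma adjusted p = 6.42e-08). PMEL, the protein that forms the fibrils of the melanosome, had 999 and 874 with vemurafenib, against 20.3 and 23.7 with vehicle (5.35 ± 0.15). The groups stood far apart for each of these genes. TSPAN10, a tetraspanin, rose (4.80 ± 0.14). Among genes with other roles, CRYGS, a crystallin of the lens, had 1692 and 1258 with vemurafenib, against 15.7 and 8.25 with vehicle (6.88 ± 0.27). RCAN2, an inhibitor of calcineurin, had 246 and 255 with vemurafenib, against 4.62 and 0 with vehicle (6.73 ± 0.66). ABCB5, an ATP-driven transporter of melanoma cells and limbal stem cells, had 1269 and 1374 with vemurafenib, against 22.2 and 35.1 with vehicle (5.51 ± 0.20). Each of these was low in both vehicle libraries and more than 100 in both vemurafenib libraries. BMF, a pro-apoptotic BH3-only protein, had 1590.2 and 1723 with vemurafenib, against 40.7 and 33 with vehicle (5.46 ± 0.14). ANGPTL7, a secreted angiopoietin-like protein, had 12646 and 12775 with vemurafenib, against 335 and 346 with vehicle (5.22 ± 0.09). BCAN, a brain proteoglycan also known as brevican, rose (5.35 ± 0.16). The other members of the 12 were SEC14L5 (5.80 ± 0.28), a lipid-binding protein, and OLFML2B (4.81 ± 0.54), an extracellular olfactomedin-like protein.

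The 12 largest falls were genes of cell division, apart from 2. MKI67, which encodes the proliferation marker Ki-67, had 1.04 and 3.0 with vemurafenib, against 1127 and 1089.9 with vehicle (-8.60 ± 0.30, limma adjusted p = 1.25e-07). DLGAP5, a spindle protein, had 2.07 and 5.0 with vemurafenib, against 1111 and 1091 with vehicle (-8.0 ± 0.29). RRM2, the subunit that sets the activity of ribonucleotide reductase, had 6.21 and 6.99 with vemurafenib, against 1942 and 1800.3 with vehicle (-7.94 ± 0.15). Both vemurafenib libraries were close to 0 for these genes, and both vehicle libraries were far above them. UBE2C, the ubiquitin-conjugating enzyme of the anaphase-promoting complex, had 3.11 and 0.999 with vemurafenib, against 648 and 663 with vehicle (-7.84 ± 0.33). MYBL2, a transcription factor of mitotic genes, had 3.11 and 3.0 with vemurafenib, against 809 and 700.1 with vehicle (-7.54 ± 0.20). TOP2A, the topoisomerase that untangles chromosomes, had 32.1 and 42 with vemurafenib, against 5018 and 5012 with vehicle (-7.06 ± 0.14). CDC20, which activates the anaphase-promoting complex, fell (-7.35 ± 0.22). The mitotic kinesins KIF14 (-7.43 ± 0.39) and KIF2C (-7.16 ± 0.18) and the hyaluronan receptor HMMR (-7.26 ± 0.18) completed this set. The 2 exceptions were SPRY4, an inhibitor of the RAS pathway described below, and MEOX2, a homeobox factor, which had 2.07 and 4.0 with vemurafenib, against 557 and 588 with vehicle (-7.19 ± 0.26).

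The inhibitors that ERK signalling induces fell together. All 6 tested members of the Sprouty and SPRED list fell, against 29.6% of all genes, with a median log2 change of -2.75. SPRY4 had 25.9 and 28 with vemurafenib, against 7871 and 8122 with vehicle (-8.16 ± 0.11, limma adjusted p = 3.35e-09), so the highest vemurafenib library was far below the lowest vehicle library. SPRY2 had 44.5 and 56.9 with vemurafenib, against 1272 and 1341 with vehicle (-4.67 ± 0.15). SPRY1 had 9.32 and 5.99 with vemurafenib, against 123 and 98 with vehicle (-3.70 ± 0.29). SPRED1, which brings the RAS inhibitor neurofibromin to the membrane, fell less, with 976 and 1195 with vemurafenib, against 2793 and 2761 with vehicle (-1.36 ± 0.11). SPRED2, its relative, fell (-1.42 ± 0.11). ERRFI1, an inhibitor of EGFR that was kept in the same list, had 180.1 and 219.8 with vemurafenib, against 676 and 708 with vehicle (-1.79 ± 0.13). SPRY3 and SPRED3 were below the filter on low values.

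The dual-specificity phosphatases, which remove phosphate from ERK, JNK and p38, did not move as 1 group: of 12 tested, 5 rose and 6 fell, with a median of -0.13. DUSP6, the phosphatase that acts on ERK in the cytoplasm, had 137 and 152 with vemurafenib, against 2389 and 2382 with vehicle (-4.04 ± 0.11). DUSP4, a nuclear phosphatase, had 2686 and 3207 with vemurafenib, against 9933 and 9925 with vehicle (-1.76 ± 0.10). DUSP5, also nuclear and specific for ERK, had 34.2 and 39.96 with vemurafenib, against 96.1 and 115 with vehicle (-1.49 ± 0.20). DUSP6, DUSP4 and DUSP5 were thus all lower, by different amounts. DUSP2 (-1.52 ± 0.22), DUSP1 (-0.66 ± 0.21) and DUSP7 (-0.39 ± 0.13) were also lower. In the other direction, DUSP10, which acts on JNK and p38, had 439 and 386 with vemurafenib, against 127 and 155 with vehicle (1.55 ± 0.15). DUSP8, also a phosphatase of JNK and p38, had 48.7 and 49 with vemurafenib, against 5.54 and 3.09 with vehicle (3.27 ± 0.36). DUSP3 (1.18 ± 0.09), DUSP9 (0.71 ± 0.16) and DUSP14 (0.60 ± 0.10) rose less. DUSP16, with 363 and 449.6 with vemurafenib, against 379 and 356 with vehicle, had overlapping groups.

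Of the ETS factors and immediate early genes 12 of 16 fell and 2 rose, with a median of -1.52. ETV4, an ETS factor of the PEA3 group, had 43.5 and 33 with vemurafenib, against 2582 and 2344 with vehicle (-5.98 ± 0.15). ETV5, of the same group, had 293 and 329 with vemurafenib, against 6067 and 5959.7 with vehicle (-4.27 ± 0.10). EGR1, a zinc finger factor induced within minutes of ERK activation, had 16.6 and 29 with vemurafenib, against 624 and 659 with vehicle (-4.81 ± 0.24). These 3 genes had high values in vehicle and low values in every vemurafenib library. EGR3 fell (-4.11 ± 0.17) and PHLDA2, a growth-regulating pleckstrin-homology protein (-4.24 ± 0.17). ETS1, the founding ETS factor, rose, with 3704 and 4808 with vemurafenib, against 1348 and 1422 with vehicle (1.61 ± 0.13). IER5, an immediate early gene, rose (0.86 ± 0.10). EGR2, with 129 and 156 with vemurafenib, against 128 and 121 with vehicle, and IER2, with 297 and 303 with vemurafenib, against 349 and 347 with vehicle, did not pass the threshold.

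The AP-1 family was split between its members, with 6 of 12 higher and 3 lower (median 0.37). JUN, the main partner in AP-1 dimers, had 3851 and 3786 with vemurafenib, against 157 and 163 with vehicle (4.57 ± 0.10, limma adjusted p = 3.34e-08). FOSL1, the FOS-related member that sustained ERK signalling stabilises, had 109 and 84.9 with vemurafenib, against 567 and 568 with vehicle (-2.55 ± 0.15). The 2 genes had clear separation between groups, in opposite directions. FOSL2 had 1332 and 1666 with vemurafenib, against 329.9 and 339 with vehicle (2.15 ± 0.13) and FOS, the classic immediate early gene, had 409 and 402 with vemurafenib, against 198 and 179 with vehicle (1.10 ± 0.12). ATF3, a stress-induced partner of JUN, had 1464 and 1444 with vemurafenib, against 169 and 145 with vehicle (3.20 ± 0.12). MAF, a large bZIP factor, rose (2.68 ± 0.10), whereas MAFF, a small MAF without an activation domain, fell (-2.24 ± 0.13). JUND rose (0.84 ± 0.13). JUNB was not changed past the threshold at 322 and 303 with vemurafenib, against 335 and 329 with vehicle, nor was FOSB at 17.6 and 22 with vemurafenib, against 28.6 and 35.1 with vehicle.

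MYC, the growth-promoting transcription factor, had 127 and 96.9 with vemurafenib, against 1285 and 1249.7 with vehicle (-3.50 ± 0.15). Both vemurafenib libraries were far below both vehicle libraries. Of its network 5 of 12 tested members rose and 3 fell. MXI1, which competes with MYC for its partner MAX, had 2534 and 2493 with vemurafenib, against 662 and 696 with vehicle (1.89 ± 0.09). MXD4, a repressor of the same kind, had 1407 and 1179.9 with vemurafenib, against 502 and 506 with vehicle (1.35 ± 0.12). MXD1 rose (0.85 ± 0.17), MYCL1 (0.80 ± 0.16) and MAX (0.38 ± 0.10). MXD3, in contrast, fell (-1.30 ± 0.13), and MLX (-0.41 ± 0.10).

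Of 18 genes of the cascade itself, from RAS, RAF and MEK to ERK, 6 rose and 3 fell, with a median of 0.11, against 26.9% higher and 29.6% lower among all genes. RASGRP3, an activator of RAS, rose, with 254 and 247 with vemurafenib, against 38.8 and 39.2 with vehicle (2.65 ± 0.15). SOS2, an exchange factor for RAS, rose (1.02 ± 0.12), and KSR1, the scaffold of the cascade (0.90 ± 0.24). ARAF (0.37 ± 0.10) and MAP2K2, which encodes MEK2 (0.52 ± 0.11), were slightly higher. RPS6KA3, a ribosomal S6 kinase that ERK activates, had 1006 and 1377 with vemurafenib, against 3863 and 3778 with vehicle (-1.70 ± 0.14). NRAS fell (-0.31 ± 0.10).

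**Figure D2:**
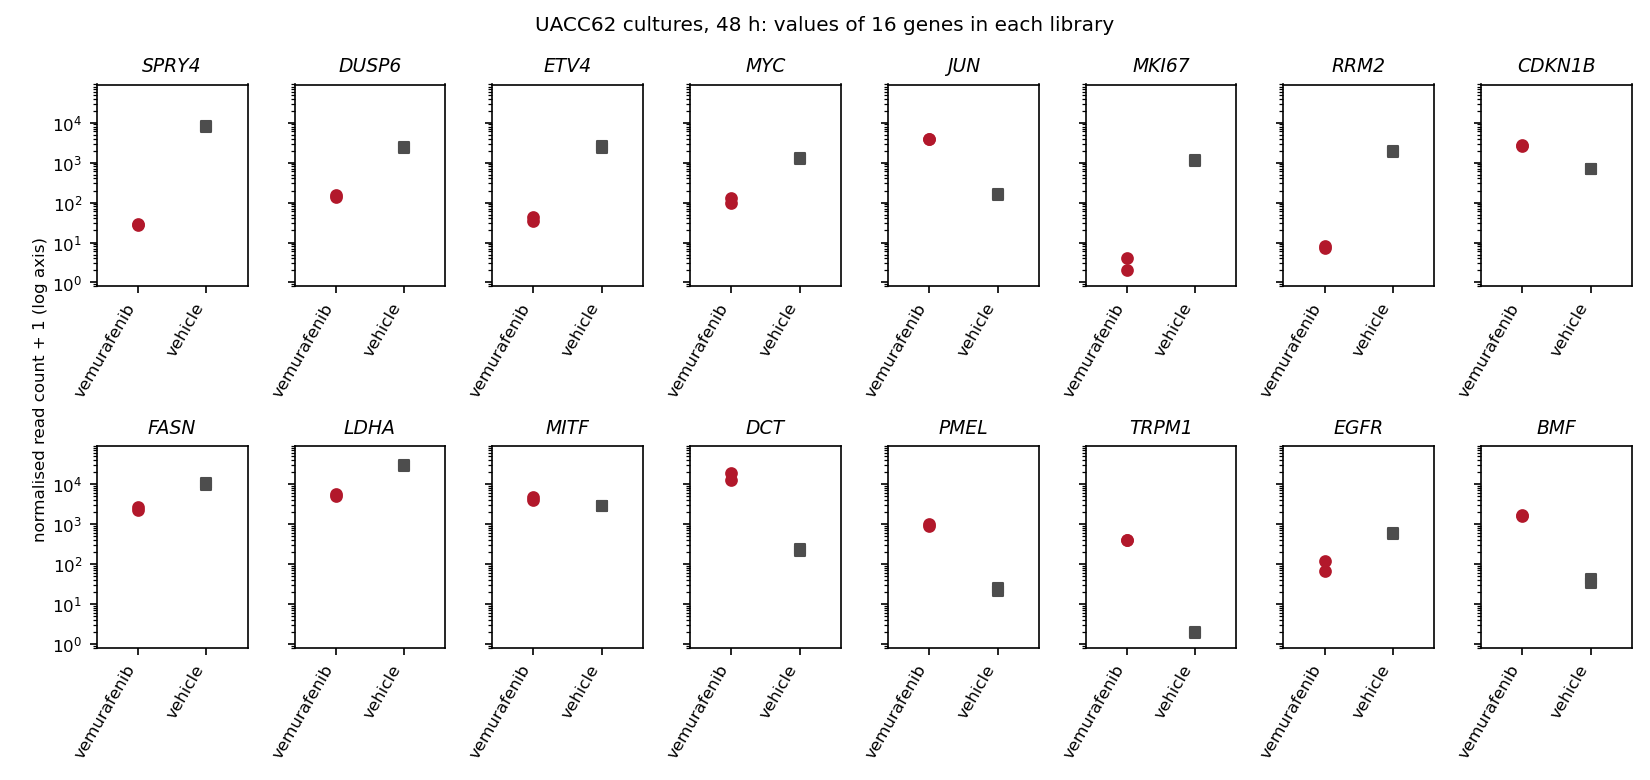
Normalised read count plus 1 (vertical log axis, the same in every panel) of 16 genes in each UACC62 library, with 2 vemurafenib samples (red circles) left of 2 vehicle samples (grey squares). SPRY4, MKI67 and RRM2 are lower with vemurafenib by more than a factor of 100, TRPM1 and DCT are higher, and in no panel do the groups overlap.

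Genes of the G1 phase changed in both directions. CDKN1B, which encodes the CDK inhibitor p27, had 2730.0 and 2569.6 with vemurafenib, against 684 and 701 with vehicle (1.93 ± 0.09, limma adjusted p = 7.23e-07). CDKN1A, which encodes p21, was higher by less, with 12762 and 11884 with vemurafenib, against 7684 and 7662 with vehicle (0.68 ± 0.09). CCND1, the cyclin that couples ERK signalling to the cell cycle, had 775 and 919 with vemurafenib, against 1822 and 1839 with vehicle (-1.12 ± 0.11). CDKN1B and CDKN1A were higher, and CCND1 lower, in both vemurafenib libraries than in either vehicle library. No other CDK inhibitor of the list rose, and CDKN2A and CDKN2B were listed at 0 in every library. CCNE2, the cyclin of the G1 to S transition, fell (-2.03 ± 0.18). Of the E2F factors, E2F1, an activator of S phase genes, had 14.5 and 16 with vemurafenib, against 429.7 and 391 with vehicle (-4.66 ± 0.17). E2F2 was listed at 0 in both vemurafenib libraries, against 116 and 83.5 with vehicle. Its vehicle mean was 65.5-fold above a floor of 3 reads over both vemurafenib libraries. The exact 95% counting interval of its ratio, vehicle over vemurafenib, starts lower, at 53.3-fold. The repressive members E2F7 (-2.84 ± 0.15) and E2F8 (-4.03 ± 0.43) fell as well. CDK4 was slightly higher (0.30 ± 0.11). CCND3, at 607 and 557 with vemurafenib, against 618 and 571 with vehicle, and RBL2, at 767 and 968 with vemurafenib, against 922 and 941 with vehicle, had overlapping groups. In all, 3 of 24 G1 genes rose and 12 fell.

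All 37 genes of DNA replication and nucleotide synthesis fell, against 29.6% of all genes, with a median of -2.21. In bulk RNA, fewer cells in a cell cycle phase and less RNA of its genes per cell cannot be told apart. TK1, the thymidine kinase of S phase, had 17.6 and 8.99 with vemurafenib, against 1319 and 1137 with vehicle (-6.49 ± 0.26). CDC45, which joins the MCM helicase, had 3.11 and 6.99 with vemurafenib, against 443 and 397 with vehicle (-6.20 ± 0.31). CDC6, which loads it, had 19.7 and 19 with vemurafenib, against 986 and 934 with vehicle (-5.56 ± 0.14). For each of these, both vemurafenib libraries were low and both vehicle libraries were far above them. MCM10, a replication initiation factor, had 2 reads over both vemurafenib libraries and 400 over both vehicle libraries, a ratio of vehicle to vemurafenib of 192 (95% counting interval 52.7 to 1588). MCM6, whose promoter is shown above, had 558 and 498 with vemurafenib, against 1804 and 1712 with vehicle (-1.74 ± 0.11). POLE had 46.6 and 47 with vemurafenib, against 900.1 and 854 with vehicle (-4.20 ± 0.13). PCNA, the sliding clamp, fell least of the list, with 1444 and 1348 with vemurafenib, against 1995 and 2045 with vehicle (-0.53 ± 0.09). POLE, MCM6 and PCNA were chosen for naming after their values were seen. Of 24 DNA repair and checkpoint genes, 19 fell and 3 rose (median -1.52). BRCA2, the homologous recombination mediator, had 1.04 and 14 with vemurafenib, against 114 and 118 with vehicle (-4.40 ± 0.74), with a wide gap between the 2 vemurafenib libraries. BLM, a helicase, fell (-3.96 ± 0.25), FANCD2 (-4.23 ± 0.20) and the exonuclease EXO1 (-4.29 ± 0.16). The rises were LIG4, a ligase of end joining (0.74 ± 0.12), PARP1 (0.65 ± 0.09) and XRCC5, a Ku subunit (0.29 ± 0.09).

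All 41 mitosis genes fell, each by at least 2-fold, with a median log2 change of -5.27 and a range of -8.60 to -2.19. The 4 genes with promoters shown above were among them: CCNB2, a mitotic cyclin, had 23.8 and 22 with vemurafenib, against 734 and 678 with vehicle (-4.89 ± 0.15), and PLK1, the polo-like kinase, had 17.6 and 25 with vemurafenib, against 741 and 674 with vehicle (-5.01 ± 0.19). CCNB2 and PLK1 were chosen for naming after their values were seen. As a share of all reads, the mitosis list held 0.0117% and 0.0127% with vemurafenib, against 0.343% and 0.334% with vehicle. The replication list held 0.0566% and 0.0527% with vemurafenib, against 0.233% and 0.221% with vehicle. Replicates of a group lay close together and the groups far apart for both lists. Of 24 chromatin regulators, 15 fell and 3 rose (median -0.84). LMNB1, the lamin of proliferating cells, had 40.4 and 49 with vemurafenib, against 1113 and 1064 with vehicle (-4.58 ± 0.14). HMGA2, an architectural protein of embryonic and tumour cells, fell (-2.69 ± 0.12), HELLS, a chromatin remodeller (-3.06 ± 0.19), and HMGB2 (-2.55 ± 0.11). KDM6B, a histone demethylase, rose (0.94 ± 0.13), DNMT3A (0.46 ± 0.12) and EZH1 (0.44 ± 0.10).

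**Figure D3:**
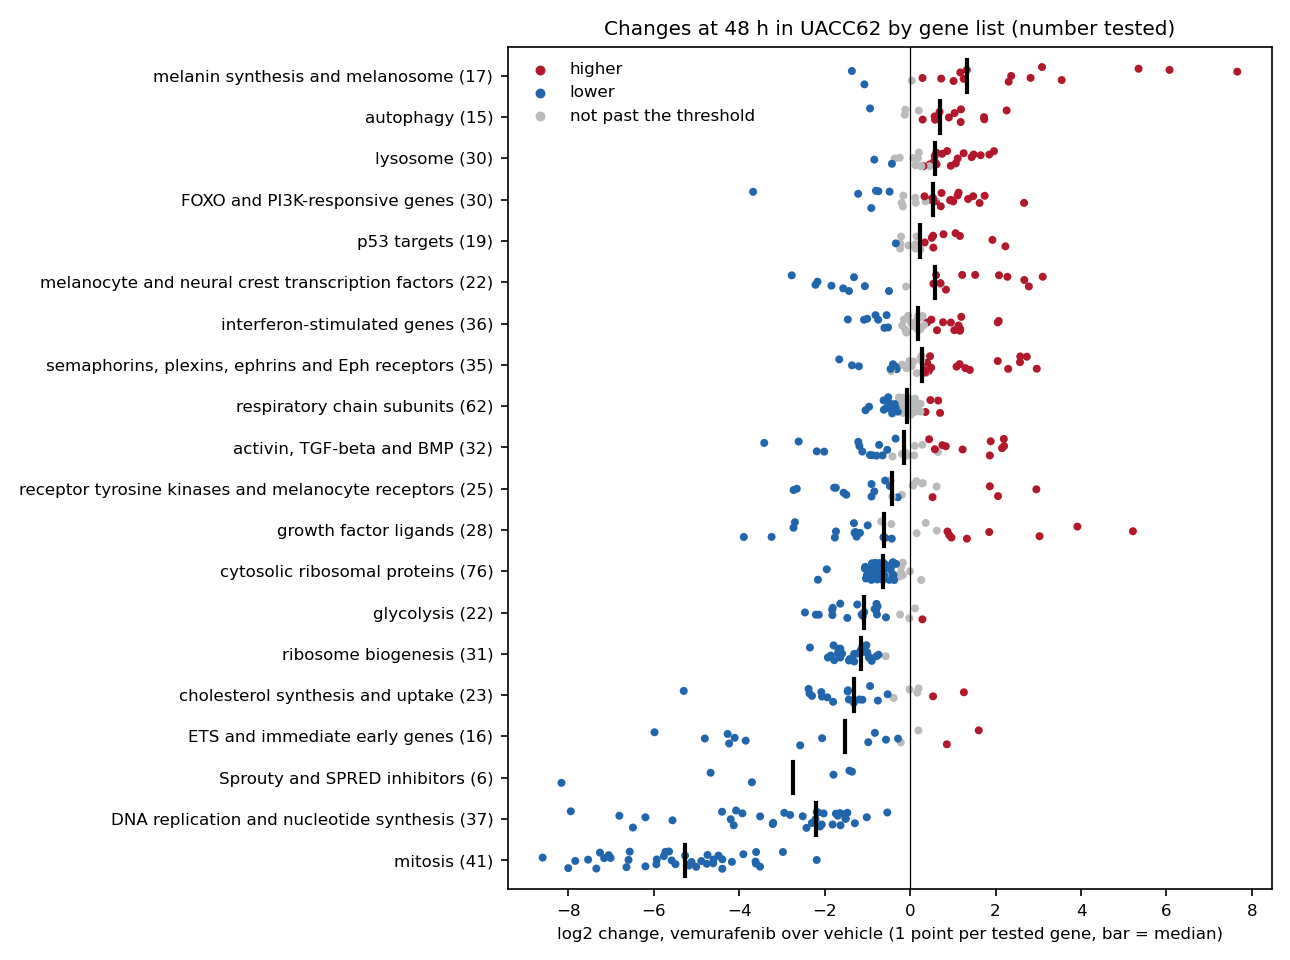
Log2 change of vemurafenib over vehicle (horizontal axis) of every tested gene in 20 gene lists (rows, with the number tested), red where higher, blue where lower and grey where not past the threshold, with a black bar at the median of each list. The medians run from 1.33 for melanin synthesis and melanosome at the top to -5.27 for mitosis at the bottom, and all points of the mitosis and replication lists lie below 0.

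Genes that build ribosomes fell as well. Of 31 ribosome biogenesis genes 30 fell and none rose, with a median of -1.16. POLR1B, a subunit of RNA polymerase I, had 217 and 295 with vemurafenib, against 1302 and 1279 with vehicle (-2.35 ± 0.15). FBL, the methyltransferase of ribosomal RNA, had 833 and 757 with vemurafenib, against 2973 and 2795 with vehicle (-1.86 ± 0.10). DKC1, which guides pseudouridine formation, had 659 and 619 with vemurafenib, against 2227 and 2206 with vehicle (-1.79 ± 0.10). All 3 had groups that were well apart. NOLC1 fell (-1.93 ± 0.11) and NOP16 (-1.78 ± 0.20). PPAN, at 19.7 and 11 with vemurafenib, against 23.1 and 21.7 with vehicle, was the member that did not pass. Of 76 cytosolic ribosomal protein genes, 68 fell and none rose, with a median of -0.63. RPL10A fell (-1.03 ± 0.12), RPL12 (-1.06 ± 0.12) and RPL35 (-1.05 ± 0.13). RPL17 (-2.16 ± 0.22) and RPS10 (-1.95 ± 0.25) have low values and overlap or resemble other annotated genes, so their counts are uncertain. RPS4X, at 17481 and 14349.7 with vemurafenib, against 18424 and 18122 with vehicle, did not pass. The ribosomal protein genes took 2.73% and 2.18% of reads with vemurafenib, against 3.41% and 3.41% with vehicle. The vemurafenib replicates differed here, and these genes are short.

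Most genes of lipid synthesis fell, in both of its branches. Of 23 genes of cholesterol synthesis and uptake, 17 fell and 2 rose, with a median of -1.32. MSMO1, a sterol demethylase, had 148 and 158 with vemurafenib, against 800.3 and 773 with vehicle (-2.36 ± 0.11). Both vemurafenib libraries were well below both vehicle libraries. DHCR7, a reductase at the end of the pathway, fell (-2.30 ± 0.11) and STARD4, a sterol carrier (-2.08 ± 0.17). SREBF2, the transcription factor of this pathway, had 1347 and 1579.5 with vemurafenib, against 2861 and 2728 with vehicle (-0.94 ± 0.11). HMGCS1, at the entry of the pathway, had 624 and 635 with vemurafenib, against 1745 and 1709 with vehicle (-1.45 ± 0.10). SREBF2 and HMGCS1 were chosen for naming after their values were seen. TM7SF2, a sterol reductase, rose, with 90.1 and 71.9 with vemurafenib, against 34.2 and 32 with vehicle (1.26 ± 0.21), and PMVK, a kinase of the mevalonate pathway (0.54 ± 0.16). FDFT1, which makes squalene, did not pass at 4942 and 4515 with vemurafenib, against 4234 and 4180.1 with vehicle. Of 11 fatty acid synthesis genes, 9 fell and none rose (median -1.26). FASN, the fatty acid synthase, had 2254 and 2649 with vemurafenib, against 10372 and 9595 with vehicle (-2.03 ± 0.10). ACSS2, which activates acetate, fell (-1.86 ± 0.09), SCD, the desaturase (-1.63 ± 0.12), ELOVL6 (-1.55 ± 0.14), ACSL3 (-1.44 ± 0.09), ACLY (-1.26 ± 0.10) and ACACA (-0.98 ± 0.13). SREBF1, at 2007 and 1970.2 with vemurafenib, against 2292 and 2058 with vehicle, did not pass. Among 5 tested genes of cholesterol efflux and the LXR receptors, APOE, the lipoprotein component, had 609 and 465 with vemurafenib, against 53.6 and 55.7 with vehicle (3.26 ± 0.16). MYLIP, a ubiquitin ligase, rose (0.78 ± 0.12), and LPCAT3 fell (-0.32 ± 0.10).

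Glycolysis genes fell in 18 of 22 cases, and 1 rose (median -1.09). LDHA, the lactate dehydrogenase of fermenting cells, had 5585 and 5037 with vemurafenib, against 30535 and 27974 with vehicle (-2.46 ± 0.09). PGK1, phosphoglycerate kinase, had 7110.3 and 6539 with vemurafenib, against 30933 and 29069.7 with vehicle (-2.14 ± 0.09). PDK1, a pyruvate dehydrogenase kinase, had 307 and 345 with vemurafenib, against 1558 and 1456 with vehicle (-2.21 ± 0.11). The groups were well apart for all 3. PFKFB4 fell (-1.83 ± 0.12) and the glucose transporter SLC2A3 (-1.82 ± 0.11). ENO2 was the gene that rose (0.29 ± 0.10). SLC16A1, a lactate carrier, did not pass at 3998 and 3925 with vemurafenib, against 3629 and 3680.0 with vehicle. Glycolysis genes took 1.16% and 1.04% of reads with vemurafenib, against 2.85% and 2.75% with vehicle. Of 14 hypoxia response genes, 7 fell and 3 rose (median -0.69). CA9, a carbonic anhydrase induced in low oxygen, had 9.32 and 5.99 with vemurafenib, against 152 and 156 with vehicle (-4.19 ± 0.26). NDRG1 had 4867 and 5184 with vemurafenib, against 27931 and 27430.3 with vehicle (-2.46 ± 0.08). CA12 fell (-2.36 ± 0.14), P4HA1, a collagen hydroxylase (-1.62 ± 0.09), BNIP3 (-1.42 ± 0.10), and HIF1A, the oxygen-regulated factor itself (-1.08 ± 0.12). VEGFA, the endothelial growth factor, fell (-0.93 ± 0.11). EPAS1, which encodes HIF-2α, rose (0.75 ± 0.13), ANKRD37 (0.64 ± 0.20) and BNIP3L (0.44 ± 0.09).

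Most genes of the respiratory chain did not pass the threshold. Of its 62 subunits, 14 fell, 4 rose and 44 did not pass, with a median of -0.07. ATP5C1, of the ATP synthase, had the largest fall (-1.04 ± 0.10), and NDUFC2, of complex I, the largest rise (0.70 ± 0.17). Among 17 citric acid cycle genes and mitochondrial regulators, 4 rose and 6 fell. PPARGC1A, the coactivator PGC-1α that raises mitochondrial gene expression and is a target of MITF in melanoma, had 519 and 613 with vemurafenib, against 51.7 and 56.7 with vehicle (3.36 ± 0.15). PPARGC1B, its relative, moved the other way (-1.04 ± 0.14). TFAM, the mitochondrial DNA transcription factor, fell (-1.02 ± 0.12). ESRRA rose (0.58 ± 0.12) and OGDH (0.30 ± 0.09). CS, citrate synthase, did not pass at 2233 and 2363 with vemurafenib, against 2524 and 2516 with vehicle.

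**Figure D4:**
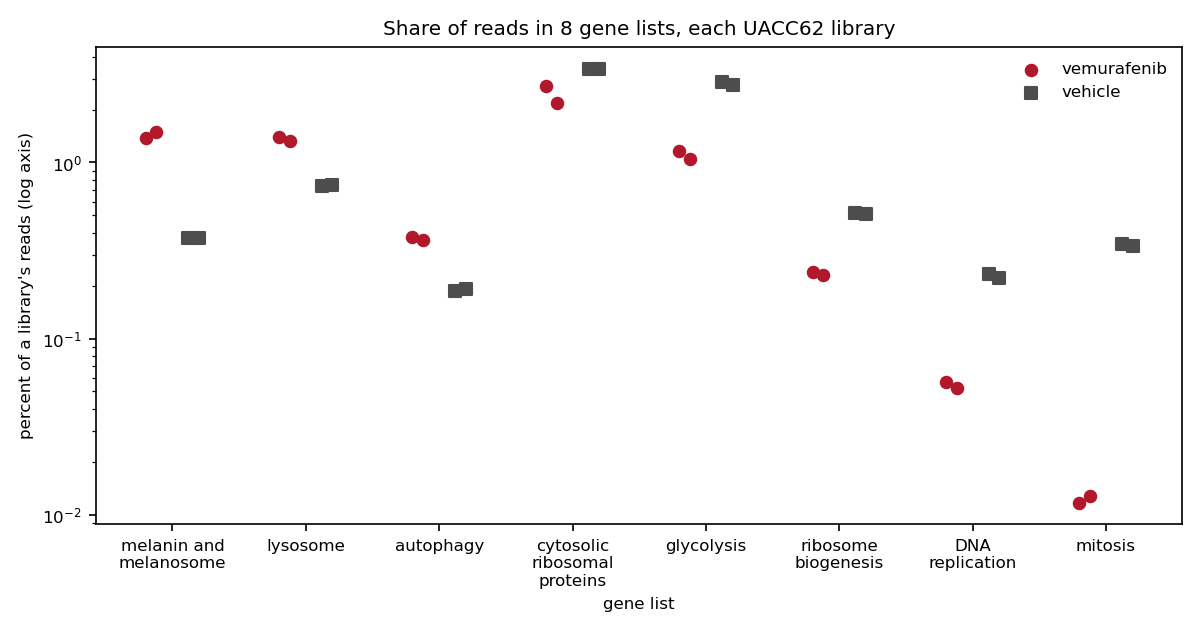
Percent of a library's reads (vertical log axis) taken by 8 gene lists in each UACC62 library, with the 2 vemurafenib samples (red circles) left of the 2 vehicle samples (grey squares). The melanin, lysosome and autophagy lists lie higher with vemurafenib, the glycolysis, ribosome biogenesis, replication and mitosis lists lie lower, and the ribosomal protein list differs between the vemurafenib replicates at 2.73% and 2.18%.

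Genes of the lysosome and of autophagy rose. Of 30 lysosome genes 19 rose, against 26.9% of all genes, and 2 fell, with a median of 0.57. CTSD, the aspartic protease of lysosomes, had 14688 and 13023 with vemurafenib, against 4415 and 4390.4 with vehicle (1.65 ± 0.09). CTSF, a cysteine protease, had 1499 and 1283 with vemurafenib, against 356 and 354 with vehicle (1.96 ± 0.11). CTSK had 3329 and 2750.5 with vemurafenib, against 839 and 833 with vehicle (1.85 ± 0.11). PSAP, the precursor of the sphingolipid activators, had 61727 and 59302 with vemurafenib, against 22393 and 22204 with vehicle (1.44 ± 0.08). TFEB, the master transcription factor of lysosome genes, had 148 and 128 with vemurafenib, against 55.4 and 42.3 with vehicle (1.49 ± 0.20), and as for the enzymes its groups did not overlap. LAMP2 did not pass at 6454 and 6925 with vemurafenib, against 5778 and 5805 with vehicle. Of 15 autophagy genes 11 rose and 1 fell (median 0.69). ATG2A, a lipid transfer protein of the autophagosome, had 2189 and 2341 with vemurafenib, against 471 and 472 with vehicle (2.26 ± 0.10). GABARAPL1, which coats that membrane, had 3487 and 3206 with vemurafenib, against 958 and 1048 with vehicle (1.74 ± 0.10). SQSTM1, the cargo receptor p62, had 22287 and 21104 with vemurafenib, against 9468 and 9528 with vehicle (1.19 ± 0.08). WIPI1 rose (1.18 ± 0.09) and MAP1LC3A (1.73 ± 0.27). BECN1, which starts the process, was the gene that fell, with 2249.7 and 2085 with vemurafenib, against 4147 and 4155 with vehicle (-0.94 ± 0.09). The lysosome list took 1.39% and 1.32% of reads with vemurafenib, against 0.740% and 0.745% with vehicle. The autophagy list took 0.379% and 0.362% with vemurafenib, against 0.186% and 0.191% with vehicle.

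Pigment genes rose. Of 17 tested genes of melanin synthesis and the melanosome, 14 rose and 2 fell, with a median of 1.33. Together they took 1.38% and 1.49% of reads with vemurafenib, against 0.370% and 0.375% with vehicle. Of the melanin enzymes, DCT is given above. TYRP1 had 91.1 and 88.9 with vemurafenib, against 5.54 and 8.25 with vehicle (3.55 ± 0.28). TYR, tyrosinase, the first enzyme of melanin synthesis, was higher by much less, with 6777 and 6412 with vemurafenib, against 4015 and 3946 with vehicle (0.73 ± 0.09). The 3 enzymes rose by unequal amounts from unequal starting values. MLANA, the melanoma antigen Melan-A, had 7329 and 6379 with vemurafenib, against 1008 and 928 with vehicle (2.82 ± 0.10). GPNMB had 111943 and 120543 with vemurafenib, against 22437 and 22628 with vehicle (2.37 ± 0.09). MLPH, which ties melanosomes to the actin motor, had 3523 and 3138 with vemurafenib, against 377 and 404 with vehicle (3.09 ± 0.10). TYR and GPNMB were chosen for naming after their values were seen. The falls were MYO5A, that motor, with 4214 and 5673 with vemurafenib, against 10295 and 10225 with vehicle (-1.07 ± 0.13), and SLC45A2, a melanosome transporter, with 712 and 657 with vemurafenib, against 1747 and 1779 with vehicle (-1.36 ± 0.10). SLC24A5, an ion exchanger of the melanosome, had overlapping groups at 2144 and 2254 with vemurafenib, against 2149 and 2130.2 with vehicle.

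MITF itself rose, with 3983 and 4689.7 with vemurafenib, against 2843 and 2831 with vehicle (0.61 ± 0.10, limma adjusted p = 0.00106). SOX10, which switches on MITF, had 14394 and 14736 with vemurafenib, against 8305 and 7983 with vehicle (0.84 ± 0.08). Among the 22 tested transcription factors of melanocytes and the neural crest, 11 rose and 9 fell (median 0.58). FOXD3, a factor of neural crest stem cells, had 565 and 511 with vemurafenib, against 69.3 and 54.6 with vehicle (3.11 ± 0.16). TFAP2A, a partner of MITF, had 3929 and 4332 with vemurafenib, against 603 and 596 with vehicle (2.78 ± 0.10). IRF4, which works with MITF at the tyrosinase gene, had 208 and 226 with vemurafenib, against 33.3 and 33 with vehicle (2.67 ± 0.16). All 3 were higher in each vemurafenib library than in either vehicle library. SOX4 rose (2.28 ± 0.10). The zinc finger factors moved in opposite directions: ZEB2 had 5636 and 7582 with vemurafenib, against 1538 and 1551 with vehicle (2.08 ± 0.13), and ZEB1 had 75.6 and 113 with vemurafenib, against 642 and 631 with vehicle (-2.77 ± 0.18). SNAI1, a factor of epithelial-mesenchymal transition, fell (-2.22 ± 0.15), TFAP2C (-2.17 ± 0.11), LEF1 (-1.84 ± 0.11) and SOX5 (-1.57 ± 0.19). Of 13 neural crest and glial markers 7 rose and 4 fell (median 0.90). NGFR, a receptor of nerve growth factor, had 262 and 278 with vemurafenib, against 27.7 and 25.8 with vehicle (3.29 ± 0.17). MBP, the myelin basic protein, had 802 and 735 with vemurafenib, against 115 and 123 with vehicle (2.69 ± 0.12). L1CAM rose (1.42 ± 0.11), TMEM176B (1.47 ± 0.35) and CNP (0.90 ± 0.09). S100B, a melanoma and glial marker, fell, with 2917 and 2499 with vemurafenib, against 7618 and 7673 with vehicle (-1.50 ± 0.10). NCAM1 fell (-1.39 ± 0.13), RXRG (-1.03 ± 0.10) and CDH19 (-0.46 ± 0.12).

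Of 25 tested receptor tyrosine kinases and melanocyte receptors, 12 fell and 4 rose (median -0.42), against 29.6% lower and 26.9% higher among all genes. EGFR had 66.3 and 117 with vemurafenib, against 566 and 612 with vehicle (-2.73 ± 0.23). AXL, a receptor often raised in dedifferentiated melanoma, had 5.18 and 16 with vemurafenib, against 60.1 and 67 with vehicle (-2.65 ± 0.44), low values with a gap between the vemurafenib replicates. EPHA2 had 210.2 and 223 with vemurafenib, against 719.9 and 770.2 with vehicle (-1.78 ± 0.11). All 3 were lower in every vemurafenib library. MERTK fell (-1.74 ± 0.20) and FGFR4 (-1.56 ± 0.15). PDGFRB did not pass, with 23.8 and 24 with vemurafenib, against 22.2 and 10.3 with vehicle. RET, the receptor of glial-derived factors, rose, with 115 and 128 with vemurafenib, against 17.6 and 12.4 with vehicle (2.96 ± 0.24). DDR1, a collagen receptor, had 457 and 485 with vemurafenib, against 110.0 and 114 with vehicle (2.06 ± 0.12). EDNRB, the endothelin receptor of melanocytes, had 4778 and 5757 with vemurafenib, against 1426 and 1449 with vehicle (1.87 ± 0.11), and ERBB2 rose (0.53 ± 0.09).

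Of 28 tested growth factor ligands, 15 fell and 8 rose (median -0.60). UCN2, a peptide hormone of the corticotropin family, had 30.02 and 19 with vemurafenib, against 383 and 356 with vehicle (-3.89 ± 0.22). STC1, a secreted glycoprotein, had 19.7 and 28 with vemurafenib, against 240.3 and 222 with vehicle (-3.24 ± 0.21). TGFA, a ligand of EGFR, had 127 and 171 with vemurafenib, against 951 and 973 with vehicle (-2.70 ± 0.15). ANGPT2 fell (-2.73 ± 0.23) and FGF13, a factor that stays inside the cell (-1.76 ± 0.11). Among ligands that rose beside ANGPTL7, FGF1 had 96.3 and 93.9 with vemurafenib, against 6.47 and 17.5 with vehicle (3.03 ± 0.39). IGF1 had 40 reads over both vemurafenib libraries and 1 over both vehicle libraries, a ratio of 41.7 (95% counting interval 7.07 to 1689). BDNF rose (1.85 ± 0.31) and ANGPTL2 (1.33 ± 0.09). HBEGF, at 229 and 207 with vemurafenib, against 156 and 183 with vehicle, did not pass. Of 7 IGF-binding proteins and adaptors, IGFBP3, which holds IGF in the circulation, had 1882 and 1902 with vemurafenib, against 22841 and 23099 with vehicle (-3.60 ± 0.08). IGFBP5 had 192 and 253 with vemurafenib, against 1601 and 1662 with vehicle (-2.88 ± 0.14). IRS2, an adaptor of the insulin and IGF receptors, had 4078 and 4739.6 with vemurafenib, against 1178 and 1183 with vehicle (1.90 ± 0.10). IGFBP7 (0.88 ± 0.15) and IRS1 (0.60 ± 0.13) rose, IGFBP2 fell (-0.31 ± 0.11), and IGF2R had overlapping groups at 5907 and 8921 with vemurafenib, against 6244 and 5857 with vehicle.

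Of 32 genes of activin, TGF-β and BMP signalling, 14 fell and 10 rose (median -0.15), against 29.6% lower and 26.9% higher among all genes. FST, follistatin, an inhibitor of activin, had 89 and 59.9 with vemurafenib, against 792 and 787 with vehicle (-3.42 ± 0.18). INHBA, the activin subunit, had 36.2 and 80.9 with vemurafenib, against 331 and 341 with vehicle (-2.61 ± 0.31). BMP4 had 25.9 and 42 with vemurafenib, against 139.5 and 169 with vehicle (-2.19 ± 0.25). The 3 secreted regulators were all lower, with spread between the vemurafenib replicates of INHBA. SMAD7, an inhibitory SMAD, fell (-2.01 ± 0.16), and SMAD6, another, rose (1.87 ± 0.18). TGFBR2, a receptor of TGF-β, had 6262 and 7340.2 with vemurafenib, against 1486 and 1478 with vehicle (2.19 ± 0.10). FSTL3, a relative of follistatin, rose (2.15 ± 0.18), FSTL1 (1.89 ± 0.08) and ID2 (2.20 ± 0.17). GDF15 fell (-1.21 ± 0.10).

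Most genes of the cytokine and chemokine list were low in this line: of 35 genes, 11 passed the filter on low values, of which 7 fell and 2 rose. IL8, which draws neutrophils, had 41.4 and 54.9 with vemurafenib, against 505 and 554 with vehicle (-3.44 ± 0.17). LIF, a cytokine of the IL-6 family, had 144 and 128 with vemurafenib, against 1644 and 1779 with vehicle (-3.65 ± 0.12). CXCL1 had 21.7 and 17 with vemurafenib, against 115 and 103 with vehicle (-2.44 ± 0.22). These 3 were each lower in both vemurafenib libraries. MIF fell (-1.15 ± 0.12) and CX3CL1 (-0.72 ± 0.13). CSF1, the macrophage growth factor, rose (0.83 ± 0.14), and IL6R, a receptor (0.79 ± 0.12). IL6 itself was below the filter, with 1.04 and 0 with vemurafenib and 0 in both vehicle libraries. CCL2, at 19.7 and 11 with vemurafenib, against 10.2 and 6.19 with vehicle, did not pass.

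Proteases and matrix genes were mixed. Of 20 proteases and their inhibitors, 11 fell and 5 rose (median -0.85). MMP16 had 105 and 157 with vemurafenib, against 2313 and 2239.5 with vehicle (-4.14 ± 0.17). ADAMTS1 had 199.8 and 199 with vemurafenib, against 1687 and 1666 with vehicle (-3.07 ± 0.10). ADAM12 fell (-2.79 ± 0.16) and MMP8 (-2.75 ± 0.23). MMP2, a gelatinase, had 7969 and 8383 with vemurafenib, against 1527 and 1719.9 with vehicle (2.33 ± 0.10), TIMP2, its inhibitor and activator, had 15839 and 16819 with vemurafenib, against 4533 and 4534 with vehicle (1.85 ± 0.08), and MMP14, which activates it at the cell surface, had 20694 and 19417 with vemurafenib, against 9625 and 9982 with vehicle (1.03 ± 0.09). Those 3 partners rose together. MMP17 rose (0.55 ± 0.11) and SERPINF1 (0.60 ± 0.09). Of 32 collagens and matrix proteins, 14 rose and 8 fell (median 0.15). COL13A1 had 5.18 and 4.0 with vemurafenib, against 112 and 106 with vehicle (-4.31 ± 0.28). TNC, tenascin C, had 916 and 1394 with vemurafenib, against 17435 and 16915 with vehicle (-3.92 ± 0.17). CTHRC1 had 916 and 772 with vemurafenib, against 5876 and 6009 with vehicle (-2.82 ± 0.11). VCAN, versican, fell (-1.72 ± 0.17) and POSTN, periostin (-1.63 ± 0.24). MATN2, matrilin 2, had 4634 and 4947 with vemurafenib, against 488 and 519 with vehicle (3.25 ± 0.10). COL7A1 rose (2.18 ± 0.16), THBS1 (1.76 ± 0.11), DCN (1.75 ± 0.25) and COL4A5 (1.47 ± 0.12). The sum of the fibroblast markers, most of it the matrix gene LUM, was also higher with vemurafenib, while PDGFRA and FAP were not, as given above, and the part of that sum in these rises was not tested. PDPN was listed at 0 in every library.

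Of 29 integrins, laminins and cadherins, 15 fell and 5 rose (median -0.35). ITGA10, a collagen-binding integrin, had 120.1 and 174 with vemurafenib, against 2567 and 2518 with vehicle (-4.13 ± 0.16). ITGA9 had 157 and 179 with vemurafenib, against 1433 and 1454 with vehicle (-3.10 ± 0.11). ITGA4 had 538 and 652 with vemurafenib, against 3455 and 3413 with vehicle (-2.53 ± 0.11). LAMA1 fell (-1.79 ± 0.14) and LAMA4 (-1.79 ± 0.11). L1CAM, LAMA5 (1.22 ± 0.11), LAMB2 (0.92 ± 0.09), MCAM (0.65 ± 0.08) and CD44 (0.46 ± 0.09) were the rises, and ITGB1 had overlapping groups at 4272 and 5243 with vemurafenib, against 5233 and 5133 with vehicle. Of 16 YAP and TEAD target genes and factors 6 rose and 8 fell, against 26.9% higher and 29.6% lower among all genes. AMOTL2 had 1127 and 1266 with vemurafenib, against 252 and 269 with vehicle (2.19 ± 0.11). CYR61 had 164 and 159 with vemurafenib, against 39.7 and 40.2 with vehicle (1.98 ± 0.17). CTGF, the other classic target, had 3489 and 3512 with vemurafenib, against 1182 and 1237 with vehicle (1.53 ± 0.09). LATS2, a kinase that restrains YAP, rose (0.97 ± 0.18). CRIM1 fell (-1.57 ± 0.15), NT5E (-1.53 ± 0.12), and TEAD4, a DNA-binding partner of YAP (-0.86 ± 0.13). Among 17 contractile actin genes, 8 fell and 3 rose. ACTN1, an actin cross-linker, had 910.0 and 1113 with vemurafenib, against 4616 and 4355 with vehicle (-2.15 ± 0.11). FHL2, a cofactor of SRF, fell (-1.11 ± 0.12). ACTA2 rose (1.26 ± 0.12), TAGLN (1.15 ± 0.26) and MYH9 (0.29 ± 0.11). ACTB, at 28009 and 26106 with vemurafenib, against 27798 and 26664 with vehicle, had overlapping groups.

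Interferon-stimulated genes showed no common direction. Of 36 tested 12 rose, against 26.9% of all genes, and 8 fell, with a median of 0.19. STAT2, which carries the interferon signal, had 3969 and 4269 with vemurafenib, against 962 and 991 with vehicle (2.07 ± 0.09). IRF7 had 172 and 137 with vemurafenib, against 60.1 and 73.2 with vehicle (1.20 ± 0.19). ISG20, an RNA exonuclease, had 90.1 and 81.9 with vemurafenib, against 17.6 and 22.7 with vehicle (2.05 ± 0.23). IFIH1, a sensor of viral RNA, rose (1.17 ± 0.13) and IFIT2 (1.17 ± 0.12). OAS3 fell (-1.46 ± 0.18), IFITM1 (-1.08 ± 0.19), BST2 (-1.01 ± 0.10), IFI35 (-0.81 ± 0.12) and UBE2L6 (-0.75 ± 0.10). In MHC class I presentation, 6 of 18 genes rose and 2 fell, none by 2-fold, against 26.9% higher and 29.6% lower among all genes. HLA-E had 6825 and 6311 with vemurafenib, against 3673 and 3491 with vehicle (0.87 ± 0.09), and B2M, the light chain, rose (0.32 ± 0.10). TAP2, a peptide transporter subunit, fell (-0.72 ± 0.11) while TAP1, the other, rose (0.29 ± 0.11). HLA genes share near-identical sequence, so their counts are uncertain. Of 12 MHC class II genes 2 rose, HLA-DPB1 (0.77 ± 0.14) and HLA-DRB1 (0.33 ± 0.11), and 1 fell, IFI30, a lysosomal reductase (-2.11 ± 0.14). CIITA, the class II transactivator, had overlapping groups at 73.5 and 93.9 with vemurafenib, against 78.5 and 79.4 with vehicle.

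Of 16 genes of the BCL2 family 6 rose and 4 fell, against 26.9% higher and 29.6% lower among all genes. BBC3, the BH3-only protein PUMA, had 673 and 499 with vemurafenib, against 269 and 281 with vehicle (1.07 ± 0.15). BCL2L11, which encodes BIM, had 483 and 667 with vemurafenib, against 437 and 408 with vehicle (0.43 ± 0.16). BAD rose (0.59 ± 0.12) and the survival factor BCL2L1 (0.69 ± 0.10). PMAIP1, the BH3-only protein NOXA, had 26.9 and 29 with vemurafenib, against 156 and 183 with vehicle (-2.55 ± 0.18). BCL2A1, a survival factor that MITF controls in melanoma, had 674 and 477 with vemurafenib, against 1259 and 1189.9 with vehicle (-1.11 ± 0.16). MCL1 fell (-0.30 ± 0.09) and BID (-0.32 ± 0.12). With BMF, 4 BH3-only genes were higher and 2 were lower. Of 30 genes that respond to FOXO and PI3K, 17 rose and 6 fell (median 0.54). GADD45B had 277 and 226 with vemurafenib, against 35.1 and 42.3 with vehicle (2.67 ± 0.18). CITED2 rose (1.75 ± 0.12), PIK3IP1 (1.48 ± 0.25) and PINK1 (1.36 ± 0.10). TRIB1, a pseudokinase, had 79.7 and 71.9 with vemurafenib, against 1007 and 954 with vehicle (-3.68 ± 0.12). FOXO1 fell (-1.22 ± 0.16), DDIT4 (-0.91 ± 0.09), PDK4 (-0.80 ± 0.18) and TRIB2 (-0.74 ± 0.09). Of 19 p53 targets 9 rose and 1 fell. PLK2, a polo-like kinase of the stress response, had 6271 and 6296 with vemurafenib, against 1325 and 1351 with vehicle (2.23 ± 0.09). TP53INP1, which promotes autophagy, had 1776 and 2160.0 with vemurafenib, against 503 and 526 with vehicle (1.93 ± 0.12). TP53I3 rose (1.17 ± 0.14), BTG1 (1.06 ± 0.10) and ZMAT3 (0.78 ± 0.11). MDM2, the ligase that degrades p53, was the gene that fell (-0.33 ± 0.10).

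Of 28 genes of ATF4 and the unfolded protein response, 16 fell and 3 rose (median -0.53). MTHFD2, a folate enzyme of the mitochondrion, had 739 and 809 with vemurafenib, against 2577 and 2696 with vehicle (-1.77 ± 0.10). PHGDH, the first enzyme of serine synthesis, had 999 and 848 with vemurafenib, against 2062 and 2068 with vehicle (-1.16 ± 0.11). PDIA4 fell (-1.15 ± 0.08), HSP90B1 (-1.14 ± 0.08) and SHMT2 (-1.13 ± 0.09). The rises were DNAJB9 (0.71 ± 0.15), DDIT3 (0.63 ± 0.12) and ATF4 (0.41 ± 0.10). Of 20 heat shock genes, 10 fell and 4 rose. HSPD1, a mitochondrial chaperonin, had 2862 and 2838 with vemurafenib, against 8626 and 8445 with vehicle (-1.58 ± 0.08). HSP90AB1 fell (-1.29 ± 0.08) and HSPA8 (-1.08 ± 0.09). CRYAB, a small heat shock protein, was far from the rest of the list, with 9818 and 8329 with vemurafenib, against 655 and 669 with vehicle (3.77 ± 0.10). HSPB1 (0.83 ± 0.12) and HSPB8 (0.48 ± 0.10) rose less, and HSPA1A (0.92 ± 0.16) has a near-identical copy that makes its count uncertain.

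The change in UACC62 was then set against that in Colo800, as the difference of the 2 log2 changes in 1 limma model over 8 libraries. The tables of the 2 lines were normalised separately, so changes and not levels are compared. Of 12765 genes tested in both, 2286 (17.9%) had a higher change in UACC62 and 2179 (17.1%) a lower one at a Benjamini-Hochberg adjusted p under 0.05, together 4465 (35%). Without UACC62 vemurafenib replicate 2 the count was 6850, of which 3523 were lower in UACC62. Lower changes numbered 1366 and 1387 without UACC62 vehicle replicate 1 or 2, 1385 and 1387 without Colo800 vemurafenib replicate 1 or 2, and 1381 without Colo800 vehicle replicate 2. Of 6074 genes called in both lines, 5535 moved in the same direction and 539 in opposite directions, of which 316 were higher in UACC62 and lower in Colo800. Across genes the changes correlated with a Pearson r of 0.754, a description with no p since genes are not independent.

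All 41 mitosis genes fell in UACC62, and 40 of them had a lower change in UACC62 than in Colo800, against 17.1% of all genes, with a median change of -5.27 in UACC62 and -3.20 in Colo800. For MKI67 the difference was -4.32 ± 0.35 (limma adjusted p = 8.52e-06), with 1.04 and 3.0 with vemurafenib, against 1127 and 1089.9 with vehicle in UACC62, and 147 and 171 with vemurafenib, against 3287 and 2925 with vehicle in Colo800. The groups were apart in both lines, and in UACC62 the treated libraries were near 0. Of 37 replication genes 13 had a lower and 5 a higher change in UACC62, against 17.1% and 17.9% of all genes. Of 31 ribosome biogenesis genes 18 had a lower change and none a higher one. Of 76 ribosomal protein genes 23 had a lower change and none a higher one, with the length difference between the UACC62 vemurafenib replicates as above.

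The feedback genes differed in both directions. SPRY4 fell more in UACC62, with a difference of -1.75 ± 0.16 (-8.16 in UACC62, -6.42 in Colo800). DUSP6 fell less, with a difference of 2.25 ± 0.14 (-4.04 in UACC62, -6.29 in Colo800). CCND1 had 775 and 919 with vemurafenib, against 1822 and 1839 with vehicle in UACC62, and 1049 and 920.3 with vemurafenib, against 19656 and 20055 with vehicle in Colo800, a difference of 3.22 ± 0.13. It was lower with the drug in every library of both lines, by far less in UACC62. CDKN1A had opposite directions, with a difference of 3.11 ± 0.09: it rose by 0.68 in UACC62, and in Colo800 it had 355 and 357 with vemurafenib, against 1868 and 1964 with vehicle. Of 12 dual-specificity phosphatases 7 had a higher change in UACC62, against 17.9% of all genes, and none a lower one.

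Of 17 pigment genes 12 had a higher change in UACC62 and 2 a lower one. The counts of this list and those below stand against 17.9% higher and 17.1% lower among all genes tested in both lines. TRPM1 had a difference of 5.62 ± 0.15. In Colo800 it had 5004 and 4403 with vemurafenib, against 1204 and 1074 with vehicle, so that it rose in both lines, and of the 2 only UACC62 had vehicle values near 0. PPARGC1A rose by 3.36 in UACC62, and in Colo800 it had 988 and 959.6 with vemurafenib, against 829 and 825 with vehicle, a difference of 3.12 ± 0.14. NGFR rose by 3.29 in UACC62, and in Colo800 it had 2899 and 3051 with vemurafenib, against 2730.1 and 2836 with vehicle, a difference of 3.19 ± 0.12. In Colo800 the log2 change was 0.23 for PPARGC1A and 0.10 for NGFR. Of 11 MHC class II genes 9 had a higher change in UACC62 and none a lower one, with a median difference of 1.13. CD74, the invariant chain, had 628 and 688 with vemurafenib, against 590.5 and 570.2 with vehicle in UACC62, and 1313 and 1441 with vemurafenib, against 4273 and 4369.7 with vehicle in Colo800 (1.83 ± 0.11). Of 33 interferon-stimulated genes 19 had a higher change in UACC62 and 1 a lower one. Of 31 proteasome genes 18 had a higher change and none a lower one. TRPM1, MKI67, SPRY4, DUSP6, CCND1, CDKN1A, NGFR, PPARGC1A and CD74 were chosen for this comparison after their values were seen.

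**Figure D5:**
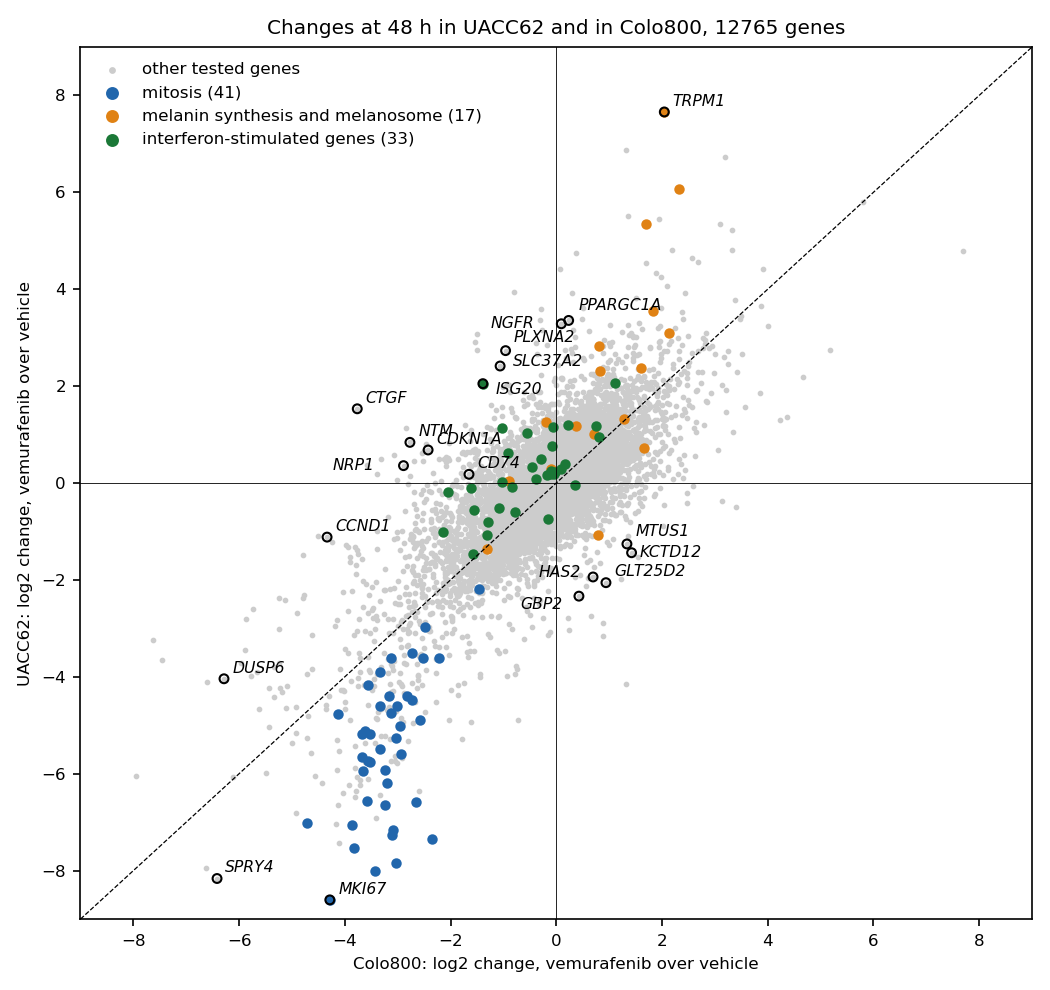
Log2 change of vemurafenib over vehicle in UACC62 (vertical axis) against that in Colo800 (horizontal axis) for 12765 genes, with 3 gene lists coloured, the genes named in the comparison ringed, and the dashed line where the changes are equal. The mitosis genes all lie below the dashed line, TRPM1 lies above it at 7.66 in UACC62 and 2.04 in Colo800, and CTGF is at 1.53 in UACC62 and -3.76 in Colo800.

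Among genes that changed past the threshold in opposite directions and had a mean of at least 50 in both lines, the 6 largest differences toward UACC62 included secreted and guidance proteins. CTGF, a matricellular growth factor, had 3489 and 3512 with vemurafenib, against 1182 and 1237 with vehicle in UACC62, and 44.6 and 52.7 with vemurafenib, against 630.3 and 715 with vehicle in Colo800, a difference of 5.30 ± 0.14 (limma adjusted p = 2.18e-08). NRP1, a coreceptor of semaphorins and VEGF, had 668 and 692 with vemurafenib, against 514 and 546 with vehicle in UACC62, and 174 and 177 with vemurafenib, against 1323 and 1294 with vehicle in Colo800 (3.25 ± 0.11). The groups stood on opposite sides in the 2 lines for both genes. PLXNA2, a semaphorin receptor, had a difference of 3.69 ± 0.27 (2.73 in UACC62, -0.96 in Colo800). NTM, a neural adhesion protein also known as neurotrimin, had 3.61 ± 0.22 (0.84 in UACC62, -2.77 in Colo800). SLC37A2, a sugar phosphate exchanger, had 3.48 ± 0.22 (2.42 in UACC62, -1.06 in Colo800). ISG20 had 3.44 ± 0.23 (2.05 in UACC62, -1.39 in Colo800).

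Of the 6 largest differences toward Colo800, 5 are given here. GLT25D2, a collagen galactosyltransferase, had 236 and 285 with vemurafenib, against 1056 and 1107 with vehicle in UACC62, and 303 and 300.1 with vemurafenib, against 158 and 155 with vehicle in Colo800 (-3.0 ± 0.15). It fell in UACC62 and rose in Colo800 with no overlap. KCTD12, an auxiliary subunit of the GABA-B receptor, had a difference of -2.86 ± 0.11 (-1.44 in UACC62, 1.43 in Colo800). GBP2, an interferon-induced GTPase, had -2.76 ± 0.14 (-2.33 in UACC62, 0.43 in Colo800). HAS2, a hyaluronan synthase, had -2.63 ± 0.24 (-1.94 in UACC62, 0.70 in Colo800). MTUS1, a microtubule-associated protein, had -2.59 ± 0.11 (-1.26 in UACC62, 1.34 in Colo800).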

How the data were processed

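Each deposited table holds 1 value per gene and library. The values are a signal, which the authors obtained as read counts over a size factor of the library. In the UACC62 file every value (100%) was a whole multiple of the step of its library within a tolerance of 0.1, and dividing by the step gave the reads. The labels' protocols name an Illumina TruSeq RNA v2 kit, which does not mark strand. Named in the submitters' processing notes, with no roles, are STAR (2.3.0e), HTSeq (0.5.4), DESeq (1.18.0), hg19 and mm9. Filters are not given in the sources used here. As no source says that strand was used in counting, genes that overlap an antisense gene or have a near-identical copy are uncertain.

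The UACC62 table lists 23368 genes. The 13649 genes with a mean of at least 10 over the 4 libraries were tested with limma 3.58.1 in R 4.3.3 on log2(value + 1), a scale that understates the change of low genes, and the variance was allowed to follow the mean. P-values were two-sided and were adjusted by Benjamini and Hochberg's method over all tested genes, with a threshold of 0.05. The difference between lines was a contrast in 1 limma model over 8 libraries. Intervals of read ratios are exact and, like the floor of 3 reads, cover counting error only. Alternatives were pseudocounts of 0.5 and 5, no filter, a filter at 50, quantile normalisation, a replicate block, edgeR 4.0.16 and DESeq2 1.42.0 on recovered reads, and leaving out each library.

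The 52 gene lists (1278 genes, 1147 of them tested) and the samples were chosen with earlier results of these data known, so no list has a test of its own. Named genes are the 12 largest changes in each direction with a mean of at least 50, every tested member of lists of up to 14, and in longer lists the 5 largest changes in each direction, up to 4 against the majority and the 2 highest unchanged members. Always included were SPRY4, DUSP6, FOSL1, MYC, CCND1, CDKN1B, MKI67, MITF, SOX10, MLANA, AXL, EGFR, PDGFRB, IGFBP3 and IL6. Noncoding and antisense genes were left out of the largest changes. For the difference the rule takes the 6 largest in each direction with opposite calls in the 2 lines. Not every gene the rule takes is named, which was decided with values in view, some genes are not reported here, and genes outside the rule are said to be so. IL8, CTGF, CYR61, GLT25D2, MYCL1 and ATP5C1 are the files' older symbols. Locus lengths (11814 genes) and promoters are from RefSeq, GRCh38.p14, and were matched by symbol.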

Additional observations from a re-analysis of the deposited data

Results flagged for a closer look

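These values were singled out because the change in UACC62 differed from that in Colo800 by a test of the difference itself, in 1 limma model with Benjamini-Hochberg adjusted p under 0.05. In all, 4465 of 12765 genes did so. Genes with a higher change in UACC62 were TRPM1 (difference of log2 changes 5.62), CTGF (5.30), PLXNA2 (3.69), NTM (3.61), SLC37A2 (3.48), ISG20 (3.44), NRP1 (3.25), CCND1 (3.22), NGFR (3.19), PPARGC1A (3.12), CDKN1A (3.11), DUSP6 (2.25) and CD74 (1.83). Genes with a lower change in UACC62 were MKI67 (-4.32), GLT25D2 (-3.0), KCTD12 (-2.86), GBP2 (-2.76), HAS2 (-2.63), MTUS1 (-2.59) and SPRY4 (-1.75). Each kept its call without any 1 of the 8 libraries and under every other setting tried. The 2 lines differ in more than their response, and each is 1 cell line, so nothing here separates the line from other features of its cultures.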

How the results depend on the processing

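The number of UACC62 genes past the threshold, 7707 in the fit reported, ran from 6565 with DESeq2 on recovered reads to 8104 with a replicate block, and from 5248 to 9872 when 1 library was left out. The correlation of the deviations of same-numbered samples was 0.0167 in UACC62 and 0.0266 in Colo800. With so few samples in each group, this cannot decide whether the numbers pair the samples. With the block the count for the difference between lines was 4404. That count, 4465 in the fit reported, ran from 3023 to 6850 when 1 library was left out, its higher part from 1642 to 3327 and its lower part from 1366 to 3523, and from 3502 with DESeq2 to 4568 without a filter. The cause of these moves was not tested. Quantile normalisation moved the median change by 0.08 and the share of higher calls from 47.59% to 54.64%. Of 435 changed genes taken by the naming rule, 414 still passed with DESeq2, 428 with edgeR, 416 after quantile normalisation, 417 without a filter and 432 with the block, and all 435 with a pseudocount of 5. Among named genes with no call, a value of the other sign passed for ACTB after quantile normalisation (0.27) and for 7 genes that turned between leaving out UACC62 vemurafenib replicate 1 and replicate 2: MGA (0.27 and -0.38), MLXIP (0.20 and -0.38), NF1 (0.11 and -0.66), NOTCH2 (0.22 and -0.51), PSMA7 (-0.20 and 0.17), PSMB4 (-0.20 and 0.15) and S100A6 (-0.22 and 0.13). Limits: there were 2 libraries per group, the vemurafenib replicates differ with gene length, and genes of few reads have wide intervals. Levels cannot be compared between lines.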

Other observations

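The gene groups here were not described above, and their counts stand against 26.9% higher and 29.6% lower among all tested genes, together 56.5%. Of 35 tested semaphorins, plexins, ephrins and Eph receptors 16 rose and 7 fell (median log2 change 0.27). SEMA3C, a secreted guidance cue, had 9761 and 12052 with vemurafenib, against 1810.3 and 1833 with vehicle (2.57 ± 0.11). SEMA5A had 470.0 and 664 with vemurafenib, against 86.9 and 99 with vehicle (2.58 ± 0.18), and SEMA6A rose (2.30 ± 0.16). EPHB6, an Eph receptor without kinase activity, rose (2.97 ± 0.40), whereas SEMA3A (-1.36 ± 0.11) and EFNA5, an ephrin (-1.66 ± 0.13), fell. Of 22 Wnt pathway genes 13 fell and 5 rose (-0.50). RNF43, a ligase that removes Wnt receptors, had 70.4 and 97.9 with vemurafenib, against 383 and 449.6 with vehicle (-2.31 ± 0.18). SFRP1, a secreted Wnt antagonist, had 332 and 377 with vemurafenib, against 1563 and 1685 with vehicle (-2.19 ± 0.11). WNT4, a ligand, had 78.7 and 65.9 with vemurafenib, against 3.70 and 6.19 with vehicle (3.65 ± 0.33). SFRP1 and WNT4 thus stood on opposite sides, and WNT4 had low values in vehicle. Of 12 Notch pathway genes 3 fell and 2 rose, HES1, a target, with 166 and 165 with vemurafenib, against 514 and 588 with vehicle (-1.73 ± 0.12). In 11 of these genes tested in both lines, 6 had a lower change in UACC62 than in Colo800 and none a higher one. Among all 12765 genes tested in both lines, 17.1% had a lower change in UACC62 and 17.9% a higher one.

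Of 12 ABC transporters 7 rose and 1 fell (0.52), the fall being ABCG2 with 13.5 and 12 with vemurafenib, against 35.1 and 44.3 with vehicle (-1.56 ± 0.28). Of 18 amino acid transporters 3 rose and 6 fell, with SLC7A8 at 2.0 ± 0.14, SLC1A4 at 1.01 ± 0.08 and the glutamine carrier SLC1A5 at -1.36 ± 0.09. Of 31 proteasome genes 11 fell and none rose, none of them by 2-fold (-0.22). Of 16 circadian clock genes 8 rose and 4 fell. BHLHE41 rose (1.51 ± 0.11) while its relative BHLHE40 fell (-1.61 ± 0.11), and DBP, a clock output factor, rose (1.24 ± 0.20). Of 13 aryl hydrocarbon receptor and retinoid genes 4 rose and 6 fell. ALDH1A1, which makes retinoic acid, had 23.8 and 23 with vemurafenib, against 371 and 378 with vehicle (-3.94 ± 0.16). DHRS3, which lowers retinoic acid by reducing retinal, had 70.4 and 55.9 with vemurafenib, against 8.32 and 5.16 with vehicle (3.07 ± 0.32). RARB, a retinoic acid receptor, rose (1.62 ± 0.13), and AHR, the receptor of the list's name, fell (-1.71 ± 0.15). Of 9 S100 genes 3 rose and 3 fell, with S100A10 at 1.52 ± 0.11 and S100A16 at -1.80 ± 0.24.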
